A study of Homo sapiens with 24 samples.

Results

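The 159 genes described here were listed as long intergenic noncoding RNAs (lincRNAs) and were present in the control cells of 4 human cancer lines. They were selected on their level: a gene that the deposited tables class as lincRNA was a member when its mean over the 3 siC libraries was at least 1 FPKM (read fragments per kilobase of the gene, set relative to the size of the library) in every line. Of the 7514 lincRNAs among 58174 listed genes, 167 reached this level. From these, 8 were left out with results of these data known: SNHG8, SNHG9, SNHG15, SNHG19, SNHG25, CYTOR, LINC00205 and MIR4435-2HG. With them put back, 3 genes rather than 0 were higher in all lines after knockdown, so the choice of members bears on the counts of rises. The levels in siC chose the members and are given below as a description only. In the GENCODE 44 annotation the members AC093323.1 and LINC00843 are listed as coding, AC006453.2 as a pseudogene, and LINC02001 under the name SNHG30.

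Total RNA, depleted of ribosomal RNA, was sequenced from A549 (lung adenocarcinoma), ES2 (ovarian carcinoma), MV3 (amelanotic melanoma) and PANC1 (pancreatic ductal adenocarcinoma). Each is 1 established cell line and received control siRNA (siC) or an siRNA pool directed at IGF2BP1 (siI1), in 3 libraries per group and 24 in all. Cells were harvested 72 h after transfection, and after 96 h in PANC1, so that line and time cannot be told apart there. The methods call the libraries biological replicates, and the labels do not say whether they were separate cultures, so p-values measure the spread between these samples. The comparison asks which transcripts depend on IGF2BP1, an oncofetal RNA-binding protein present in the embryo and regained by many tumours.

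IGF2BP1 mRNA itself was left at 24.9% of the siC level in PANC1, 31.4% in MV3, 31.7% in ES2 and 39.4% in A549 (limma, adjusted p from 5.93e-05 to 0.000319). Between 3105215 and 20082702 reads were assigned to genes per library, fewest in A549 and most in MV3. In PANC1 the FPKM values summed to 977547 to 1191707 in the siI1 libraries but to 526337 to 756438 in the siC libraries, while the sums of the groups overlapped in the other lines. The epithelial keratin KRT8 stood at 512 FPKM in A549 and 717 in PANC1 siC, against 9.01 in ES2 and 3.04 in MV3, but KRT7, a marker fixed for both A549 and PANC1, stood at 399 in A549, 103 in ES2 and 2.88 in PANC1. The lung markers NKX2-1, SFTPB and SFTPC were listed at 0 in A549. In MV3 the melanocyte markers SOX10, TYR and S100B were listed at 0, and in ES2 PAX8 stood at 0.157 FPKM, MUC16 being listed at 0. KRT19, fixed for PANC1, stood at 617 FPKM there, 117 in A549 and 0.0277 in MV3, and was listed at 0 in ES2. VIM, fixed for ES2 and PANC1, stood at 1080 in ES2, 926 in MV3, 541 in PANC1 and 248 in A549. The blood-cell marker PTPRC was at most 0.0111 FPKM in siC of any line. The endothelial marker PECAM1 stood at 0.321 in ES2 and 0.208 in MV3. The fibroblast marker COL1A1 stood at 3.59 in ES2, 1.23 in MV3, 0.832 in A549 and 0.272 in PANC1.

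LincRNAs are transcribed by RNA polymerase II from units that lie apart from coding genes, and many are capped, spliced and polyadenylated like mRNAs. Some remain in nuclear bodies (MALAT1 in speckles, NEAT1 as the scaffold of paraspeckles), some bind proteins in the cytoplasm (NORAD), and others are primary transcripts from which microRNAs are cut by the nuclear Drosha complex. IGF2BP1 is a cytoplasmic KH-domain protein known mainly for binding mRNAs, often in their untranslated ends, and for slowing their decay.

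Of the members, 11 span mature microRNAs on their own strand in the RefSeq set used (GRCh38.p14), from 24 hairpins in all. MicroRNAs outside that set were not looked for. The mature sequences below are shown because several members carry microRNAs of the same family, that is with the same seed (bases 2 to 8, in capitals). Mature microRNAs were not measured here, since the libraries report the host transcript.
hsa-let-7i-5p: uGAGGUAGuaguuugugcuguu
hsa-let-7a-5p: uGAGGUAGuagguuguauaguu
hsa-let-7b-5p: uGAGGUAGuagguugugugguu
hsa-let-7f-5p: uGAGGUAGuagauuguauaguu
hsa-let-7d-5p: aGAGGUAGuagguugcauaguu
hsa-miR-221-3p: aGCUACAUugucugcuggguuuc
hsa-miR-222-3p: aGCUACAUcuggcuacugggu
hsa-miR-30a-5p: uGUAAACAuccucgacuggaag
hsa-miR-30c-5p: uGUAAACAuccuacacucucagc
hsa-miR-181a-5p: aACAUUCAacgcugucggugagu
hsa-miR-181b-5p: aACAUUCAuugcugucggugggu
hsa-miR-503-5p: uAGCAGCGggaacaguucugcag
hsa-miR-22-3p: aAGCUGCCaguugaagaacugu
hsa-miR-23a-3p: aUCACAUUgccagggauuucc
hsa-miR-27a-3p: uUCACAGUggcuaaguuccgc

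The let-7 seed GAGGUAG occurs in 3 members. AC048341.3 on chromosome 12 holds let-7i (chr12:62603691-62603712, plus strand), AL158152.1 on chromosome 9 holds let-7a-1, let-7f-1 and let-7d, and MIRLET7BHG on chromosome 22 holds let-7a-3 and let-7b. MIR222HG holds the miR-221/222 pair, LINC00472 holds miR-30a and miR-30c, MIR181A1HG holds miR-181a and miR-181b, and AC020916.1 holds miR-23a, miR-27a and miR-24. MIR503HG (chrX:134543119-134546642, minus strand) holds miR-503 at chrX:134546371-134546393.

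Most members were lowly expressed. In the deposited tables only 54 carry a gene name, while 105 are listed by the clone in which they were found. Some of the latter have gene names in GENCODE 44, such as AC020916.1 (MIR23AHG), AL158152.1 (MIRLET7A1HG) and AC084033.3 (GIHCG). The median level in siC was 2.41 FPKM in PANC1, 3.07 in MV3, 3.41 in ES2 and 3.44 in A549. Members were longer than lincRNAs at large, with a median listed length of 1253 nt (235 to 28271 nt) against 721 nt over all listed lincRNAs. Because 39 members are shorter than 500 nt, many levels rest on few reads: in siC the mean was under 10 reads per library for 56 members in A549, 32 in PANC1, 27 in ES2 and 10 in MV3. At the edge of the choice, the lowest line mean was 1.001 FPKM for AC026471.4, 1.002 for AC012435.2 and 1.021 for LINC01089, whereas LINC01909 (0.9969), AC048341.2 (0.9954) and AC093297.3 (0.9838) fell just outside.

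MALAT1 alone supplied a large share of the signal. Its FPKM made up 54.2% ± 1.86 (SD, n = 3) of the sum over members in PANC1 siC, 31.0% ± 1.65 in A549, 19% ± 1.19 in MV3 and 7.92% ± 0.862 in ES2. In siC it stood at 767 ± 148 FPKM in PANC1, 380 ± 38.7 in A549, 194 ± 23.2 in MV3 and 87.5 ± 10.4 in ES2, and the libraries of neighbouring lines in this order did not overlap. NORAD, which holds PUMILIO proteins in the cytoplasm, was lowest in PANC1 with 28.8 ± 0.676 FPKM, below all libraries of the other lines, against 67.5 ± 4.5 in A549, 87.5 ± 1.31 in MV3 and 91.9 ± 8.45 in ES2, the last 2 overlapping. The widest difference between lines belonged to AP005233.2, which was 50.8 times higher in ES2 (176 ± 9.97 FPKM) than in A549 (3.46 ± 1.66). AP005233.2 overlaps the coding gene MYEOV on the same strand. Over all members the median ratio of the highest to the lowest line was 2.65, with 43 members under 2-fold and 3 over 10-fold. Each line's table was scaled separately, and the FPKM sums of siC libraries ran from 376427 in A549 to 756438 in PANC1. Differences in level between lines are therefore a description only.

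**Figure D1:**
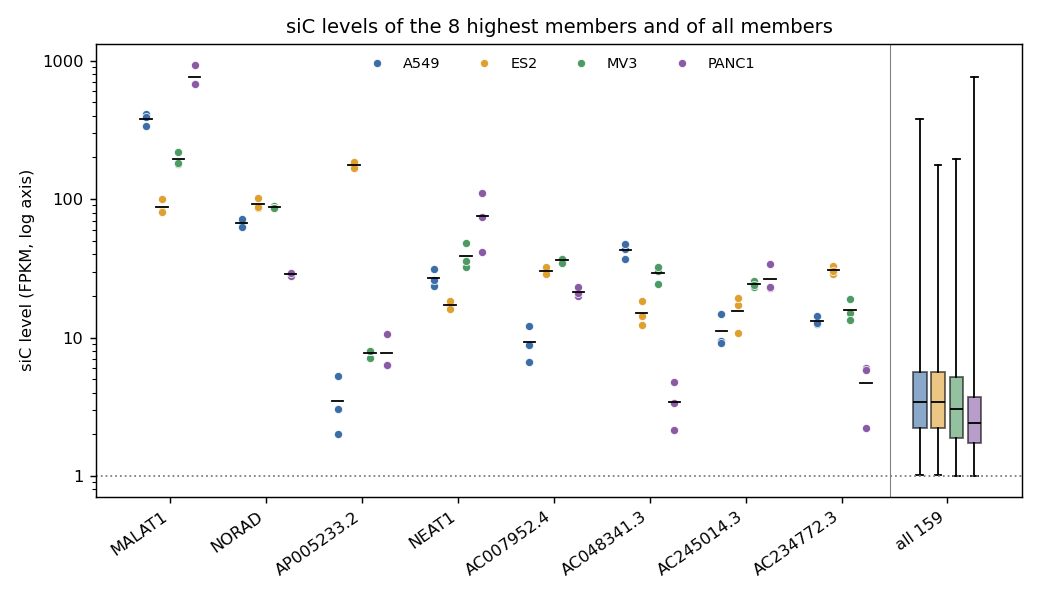
Levels in siC (FPKM, log axis) of the 8 members with the highest mean over lines, 1 dot per library and a bar at the mean of 3, and boxes for all 159 members (median, quartiles and full range) by line. MALAT1 and NEAT1 are highest in PANC1, NORAD is lowest there, and AP005233.2 reaches 176 FPKM in ES2 against 3.46 in A549; the dotted line is the level of 1 FPKM that chose the members.

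After knockdown the members moved in both directions in every line, without a common shift. In A549 10 were lower and 5 higher (limma on log2(FPKM + 0.5), adjusted p under 0.05 over all genes tested), against 7.83% and 5.93% of all genes. ES2 had 14 lower and 14 higher, against 13.0% and 10.5%. MV3 had 16 lower and 25 higher, against 19.5% and 16.3%. PANC1 had 12 lower and 17 higher, against 13.4% and 11.3%. All 159 were tested in each line, so the members' shares were 9.43%, 17.6%, 25.8% and 18.2%, below those of all genes (13.8%, 23.5%, 35.7% and 24.8%). They were above those of the other lincRNAs tested (4.59%, 13.6%, 23.2% and 9.96%). Of those others 0.845%, 4.14%, 3.04% and 1.55% were lower, against 6.29%, 8.81%, 10.1% and 7.55% of members. Higher were 3.74%, 9.43%, 20.2% and 8.41% of the others, against 3.14%, 8.81%, 15.7% and 10.7% of members. The precision of these lists differed. The median standard error of the log2 fold change was 0.23, 0.16, 0.12 and 0.22 over members. It was 0.40, 0.26, 0.18 and 0.30 over the other lincRNAs, and 0.17, 0.12, 0.08 and 0.13 over all genes. The part of this difference in the called shares was not tested. The median log2 fold change, siI1 minus siC, over members was 0.01, 0.00, 0.06 and -0.06 in these lines in the same order, beside -0.01, -0.02, 0.01 and -0.04 over all genes. Over the other lincRNAs tested it was 0.10, 0.09, 0.24 and 0.13. Because the level in siC chose the members, its spread enters these values. By the same level applied to siI1, 154 lincRNAs pass, 137 of them members, and their medians were 0.11, 0.04, 0.14 and 0.05.

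Of the 113 calls, in 75 members, 101 were also made on the recovered reads with voom, none in the opposite direction. The groups did not overlap in any of the 113. They did not overlap in 198 of all 636 member-by-line values, called or not. With 3 libraries per group a call nearly requires separate groups, so this adds no support of its own. The test on reads made 128 calls in all, 27 of them new. Just 2 calls rested on a mean under 10 reads per library, AL596094.1 in A549 and AC091057.3 in PANC1, of which voom kept the second. In contrast, 9 values of at least 1 in log2 size did not pass, all resting on at most 8.33 reads. In PANC1 the counts depended on the scaling. When libraries were rescaled to the same FPKM sum, the median of all genes moved to -0.68 and that of the members likewise to -0.68, with 65 members lower and 3 higher against 54.6% and 0.591% of all genes; all 12 falls but only 3 of the 17 rises kept their call. The same rescaling gave 11 lower and 3 higher in A549 and 9 lower and 15 higher in ES2.

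**Figure D2:**
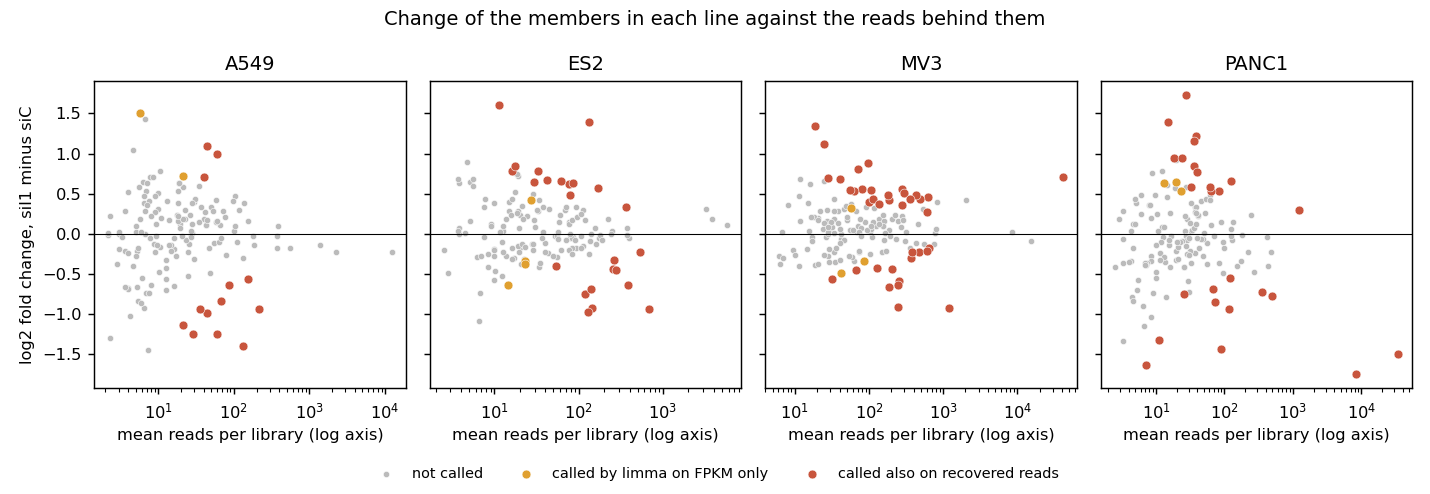
Log2 fold change (siI1 minus siC) of the 159 members in each line against the mean number of reads per library (log axis). Grey dots did not pass limma, orange dots passed on FPKM only and red dots passed also on recovered reads; the calls lie on both sides of 0 in each line, and the widest grey scatter sits at the fewest reads.

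A group of 4 members, 2.52% of the 159, fell in all 4 lines, about the same share as the 2.51% of the 12816 genes tested in every line, and 0 rose in all lines by limma or voom, against 0.577% (1, AC012306.2, at an unadjusted p under 0.05 in each line). The 4 are AL035071.1, AC125807.2, AC005261.2 and AC145207.5. Each is annotated as a single exon. All were called in each line on recovered reads too, as was AC093323.1, which limma called lower in 3 lines.

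AC125807.2 (chr12:3041437-3044950, plus strand, hg38) had 6.38, 7.46 and 6.94 FPKM in the ES2 siC libraries against 3.22, 3.32 and 3.3 in siI1, a log2 fold change of -0.97 ± 0.08 (SE, adjusted p = 0.000678). It fell to a like extent in MV3, from 5.63, 5.63 and 5.31 to 2.83, 2.72 and 2.54 FPKM (-0.91 ± 0.06, adjusted p = 0.000214), and in PANC1, from 3.79, 3.78 and 3.39 to 1.58, 2.08 and 1.75 (-0.85 ± 0.12, adjusted p = 0.00418). Every siI1 library lay below every siC library. In A549 it went from 4.12, 2.65 and 2.47 to 1.24, 1.25 and 0.562 FPKM (-1.25 ± 0.29, adjusted p = 0.0373), but here libraries held as few as 7 reads and the call was lost without any 1 library (adjusted p from 0.0687 to 0.115).

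AL035071.1 (chr20:32856621-32858751, plus strand) was the most stable of the 4. In ES2 its libraries read 13.5, 13.6 and 10.7 FPKM in siC and 7.41, 5.66 and 6.17 in siI1, and in PANC1 9.84, 8.77 and 10.4 against 4.80, 4.76 and 4.80. The siI1 libraries thus stood at about the same level in PANC1, far below siC. The log2 fold changes were -1.13 ± 0.17 in A549, -0.94 ± 0.08 in PANC1, -0.92 ± 0.13 in ES2 and -0.59 ± 0.09 in MV3 (adjusted p from 0.00124 to 0.00974), and it alone passed in all lines whichever library was left out.

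AC145207.5 (chr17:81878425-81881106, minus strand) showed its largest fall in PANC1, from 5.75, 6.83 and 6.84 to 1.31, 2.36 and 2.82 FPKM (-1.43 ± 0.23, adjusted p = 0.00711). It fell by 0.84 in A549, 0.44 in ES2 and 0.66 in MV3 on the log2 scale, with no overlap of groups. The call was lost in A549 without siC 3, siI1 1 or siI1 2 (adjusted p up to 0.058) and in ES2 without siC 1, siC 3, siI1 2 or siI1 3 (up to 0.0877). The ES2 call also ended on rescaling to the same FPKM sum (adjusted p = 0.105).

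AC005261.2 (chr19:57304305-57308562, plus strand) was the most abundant of the 4 in MV3. There it went from 21.5, 21.7 and 21.8 to 11.9, 11 and 10.8 FPKM (-0.92 ± 0.04, adjusted p = 0.000109). It fell by 0.93 in A549 and 0.72 in PANC1 on the log2 scale, and by just 0.32 in ES2, where siC ranged from 8.38 to 10.3 and siI1 from 7.13 to 7.81 FPKM (adjusted p = 0.0428). That ES2 call was lost without any library except siC 2 (adjusted p up to 0.122), and the A549 call without siC 1, siC 2, siI1 1 or siI1 2 (up to 0.0619). Rescaling ended the ES2 call as well (adjusted p = 0.194). The size of its fall differed between lines (Cochran's Q, adjusted p = 0.027).

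**Figure D3:**
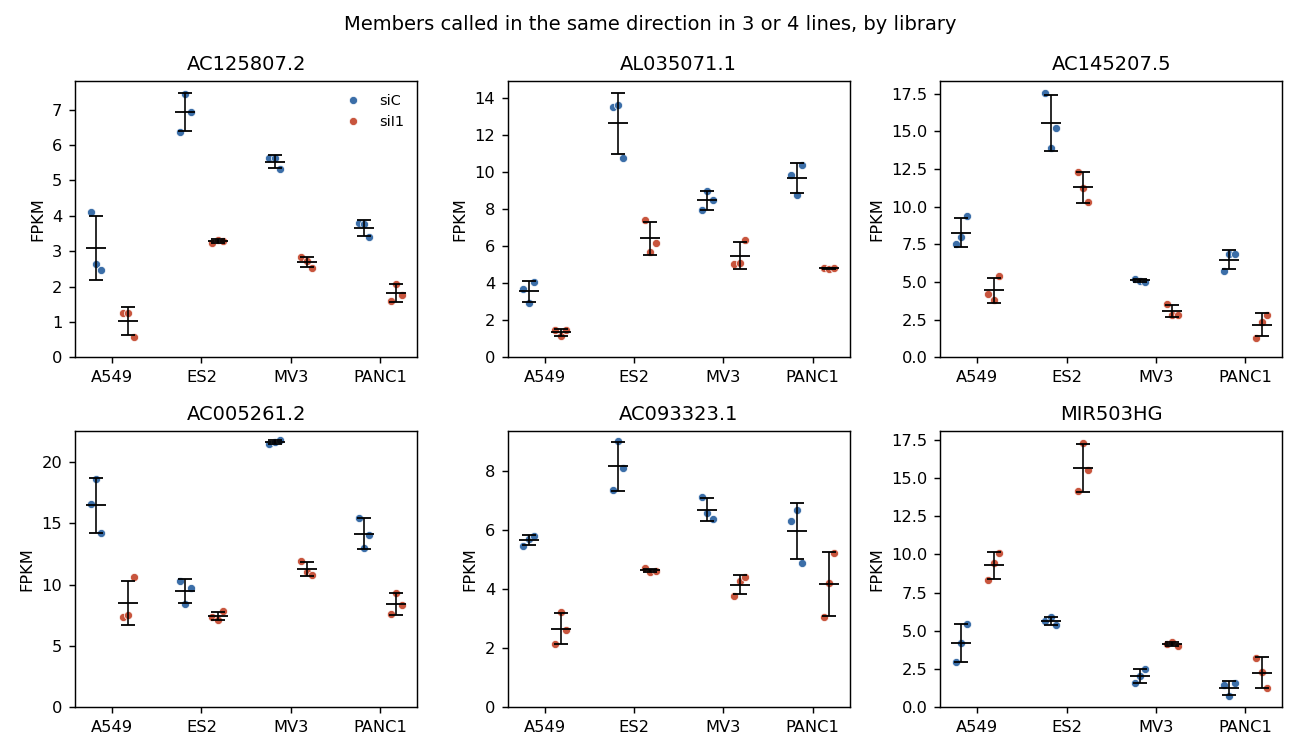
FPKM by library for the 4 members lower in all lines (AC125807.2, AL035071.1, AC145207.5, AC005261.2), AC093323.1 and MIR503HG. Dots are libraries, blue for siC and red for siI1, with mean and SD of 3; in the first 4 panels siI1 lies below siC in each line, and in the last it lies above in A549, ES2 and MV3.

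The 3′ ends (last 50 bases, hg38, strand of the transcript) are shown for those of the 4 that hold a polyadenylation signal, AATAAA or ATTAAA on the transcript strand, in capitals. It was found in 3 of the 4 and not in AC125807.2, and in 72.9% of the 48 single-exon members against 72.1% of the other single-exon lincRNAs with the same annotation.
AL035071.1, chr20:32858702-32858751, plus strand: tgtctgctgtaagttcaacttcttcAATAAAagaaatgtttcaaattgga
AC145207.5, chr17:81878425-81878474, minus strand: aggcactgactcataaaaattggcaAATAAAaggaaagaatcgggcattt
AC005261.2, chr19:57308513-57308562, plus strand: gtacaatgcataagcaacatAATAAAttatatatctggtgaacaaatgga

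All 4 lie downstream of a coding gene on the same strand. AC125807.2 starts 761 nt after TEAD4, a transcription factor of the Hippo pathway. AL035071.1 lies 6216 nt after MAPRE1, a microtubule plus-end protein. AC145207.5 starts 6729 nt after ALYREF, an mRNA export adaptor, and AC005261.2 lies 10236 nt after ZNF460, a zinc finger gene. ZNF460 fell in all 4 lines (log2 fold changes of -0.83, -0.61, -0.84 and -0.79 in A549, ES2, MV3 and PANC1, adjusted p from 0.000113 to 0.0054), as did ALYREF (-0.49, -0.60, -0.53 and -0.78, adjusted p from 0.00295 to 0.00594). TEAD4 fell in A549, ES2 and MV3 (-0.55, -0.54 and -0.28) and stood at 0.19 in PANC1 (adjusted p = 0.426), where AC125807.2 fell. MAPRE1 fell in ES2 and MV3 by 0.24 and 0.20 and was at -0.04 in A549 and 0.08 in PANC1, where it did not pass.

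In all, 17 members lie within 12 kb downstream of a coding gene on the same strand without overlapping it, a limit set after these values were seen. Among them were 6 of the 10 falls in A549, 6 of 12 in PANC1, 4 of 14 in ES2 and 4 of 16 in MV3, with 1 rise each in MV3 and PANC1. In the same order of lines, 6.29%, 7.55%, 8.81% and 10.1% of all 159 members were lower. Of all genes 7.83%, 13.4%, 13.0% and 19.5% were lower. In the 22 calls of these 17 members, the coding gene was called in the same direction in 15 and in the opposite direction in none. These calls are values of 1 member in 1 line, not separate members, and include all those of the 4 members lower in all lines. The 15 came only from these 4 and LINC01963. XRCC5, which ends 10742 nt upstream of LINC01963, was called lower in A549, ES2, MV3 and PANC1 (-0.27, -0.20, -0.20 and -0.34). LINC01963 itself was called lower in A549 and PANC1 only, and stood at 0.08 in ES2 and 0.09 in MV3. Where the lincRNA was not called, the coding gene was called in 16 of 46 values. At 25 kb these numbers were 16 the same and 3 opposite of 29 calls, and at 5 kb 3 and 0 of 7. Reads of a coding transcript that runs past its annotated end cannot be told apart from those of a lincRNA on the same strand, and their part in the result was not tested. NEAT1 fell in PANC1 where FRMD8, which ends 9249 nt upstream of it, stood at 0.04 (adjusted p = 0.702), and FRMD8 fell in A549 by 0.68 where NEAT1 stood at -0.23.

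**Figure D4:**
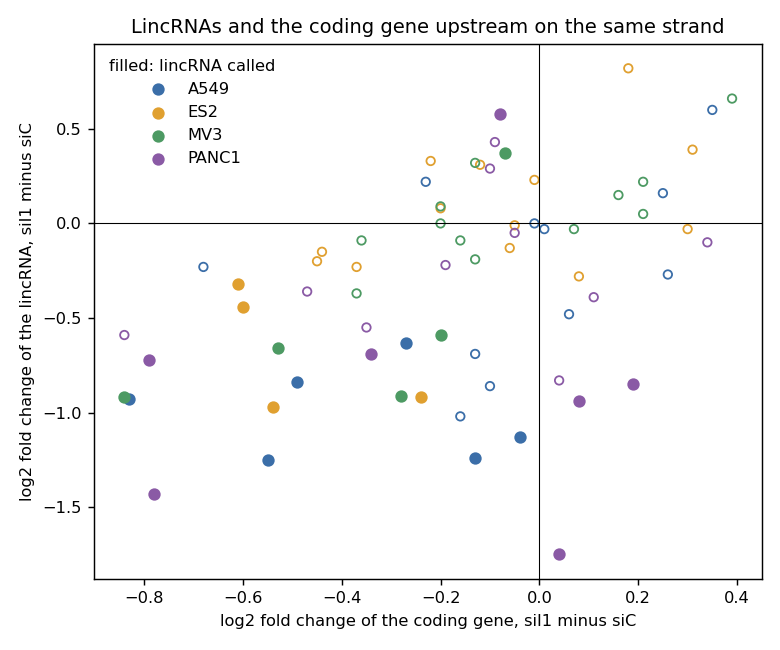
Log2 fold change (siI1 minus siC) of 17 lincRNAs against that of the coding gene up to 12 kb upstream on the same strand, in 4 lines. Filled dots are values in which limma called the lincRNA, 22 in all; 20 of them lie below 0 on the lincRNA axis and most lie left of 0 on the coding gene axis.

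Other arrangements are given for comparison, with no test between them. For 31 members a coding gene starts on the opposite strand within 1 kb, so that the pair diverges. These had no call in A549, 2 falls and 3 rises in ES2, 2 and 5 in MV3, and 0 and 5 in PANC1, with a median of 0.26 there. Of all members 8.81%, 15.7% and 10.7% were higher in ES2, MV3 and PANC1, and of all genes 10.5%, 16.3% and 11.3%. Lower were 8.81%, 10.1% and 7.55% of members and 13.0%, 19.5% and 13.4% of all genes. On rescaling to the same FPKM sum, only 3 of the 17 rises of all members in PANC1 kept their call. The median of all members moved to -0.68 there, and that of the 31 alone was not worked out. Of 17 calls with a tested partner, the partner was called in the same direction in 2 and in the opposite direction in 4. A coding gene overlaps 24 members on the same strand and 35 on the opposite strand. The kit keeps strand but the setting used in counting is not given in the sources used here, so reads in such overlaps are uncertain.

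AC093323.1 and its antisense partner AC093323.3 were called in opposite directions in MV3. AC093323.1 (chr4:6663396-6676755, plus strand), which GENCODE 44 now lists as coding, fell by 0.98 in A549, 0.75 in ES2 and 0.63 in MV3 on the log2 scale (adjusted p from 0.00121 to 0.00921), without overlap of groups. In PANC1 it went from 6.31, 6.70 and 4.91 to 3.04, 4.23 and 5.22 FPKM, which overlap, and did not pass limma (adjusted p = 0.123) but did pass voom (0.0364). AC093323.3, which overlaps it on the minus strand (chr4:6648695-6673965), rose in PANC1 from 4.28, 5.57 and 3.10 to 15.9, 15.0 and 14.6 FPKM (1.73 ± 0.18, adjusted p = 0.00213). It rose by 0.70 in MV3 and stood at 0.65 in both A549 and ES2 (adjusted p = 0.297 and 0.584), where libraries held at most 12 reads.

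MIR503HG, the host of miR-503 at a cluster known to slow the cell cycle, was the one member that rose in 3 lines. In ES2 it went from 5.66, 5.90 and 5.37 to 14.2, 17.3 and 15.5 FPKM (1.39 ± 0.08, adjusted p = 0.000276). It rose in MV3 from 1.58, 2.01 and 2.49 to 4.10, 4.23 and 4.01 (0.88 ± 0.13, adjusted p = 0.00337) and in A549 from 2.92, 4.19 and 5.44 to 8.33, 9.44 and 10.1 (1.10 ± 0.21, adjusted p = 0.02). All siI1 libraries lay above all siC libraries in these lines. In A549 the call was lost without siC 2, siI1 2 or siI1 3 (adjusted p up to 0.0688). In PANC1 the values were 1.41, 0.70 and 1.56 against 3.22, 2.28 and 1.22 FPKM, which overlap (0.64 ± 0.34, adjusted p = 0.22).

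The other microRNA hosts changed in 1 line or in none, apart from MIRLET7BHG. The let-7i host AC048341.3 fell in A549 from 43.4, 47.6 and 36.7 to 22.8, 17.5 and 13.8 FPKM (-1.24 ± 0.19, adjusted p = 0.00992) and was at -0.03 in ES2, 0.22 in MV3 and -0.55 in PANC1. MIRLET7BHG fell in A549 by 0.56 on the log2 scale (adjusted p = 0.047) and rose in MV3 by 0.44 (adjusted p = 0.0115); the A549 call was lost without any library except siI1 1 (adjusted p up to 0.127) and on rescaling (0.0818). The third let-7 host, AL158152.1, passed in no line and lay between -0.24 and 0.16. The 3 hosts that share the let-7 seed GAGGUAG thus had different calls.

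LINC00472, host of miR-30a and miR-30c, fell in ES2 from 12.5, 12.7 and 13.6 to 9.40, 9.43 and 9.25 FPKM (-0.45 ± 0.05, adjusted p = 0.00238). MIR222HG fell in ES2 by 0.23 (adjusted p = 0.0386) and MIR181A1HG rose there by 0.63 (adjusted p = 0.0364). Both of these calls were fragile: that of MIR222HG was lost without siC 1, siC 3, siI1 1 or siI1 3 (adjusted p up to 0.12) and that of MIR181A1HG without any library except siC 3 (up to 0.11). Rescaling ended the MIR222HG call too (adjusted p = 0.318). AC020916.1, host of miR-23a and miR-27a, fell in MV3 by 0.23 (adjusted p = 0.0126), a call that rescaling ended (0.0784). MIR22HG passed in no line, with log2 fold changes between -0.09 and 0.42, nor did AC068025.2, host of miR-4523. Over the 11 hosts and 4 lines there were 6 falls and 5 rises, 25% of the 44 values, where 13.8% to 35.7% of all genes were called per line.

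MALAT1, which gathers in nuclear speckles, had the smallest p for a difference between lines. In PANC1 it fell from 684, 679 and 938 to 245, 237 and 332 FPKM (-1.5 ± 0.18, adjusted p = 0.00292). In MV3 it rose from 180, 181 and 221 to 330, 295 and 323 (0.71 ± 0.09, adjusted p = 0.00179). The groups did not overlap in either line and did in A549 (338 to 413 against 293 to 347 FPKM, -0.22 ± 0.10) and in ES2 (81.4 to 99.5 against 83.9 to 106, 0.11 ± 0.11). The 4 fold changes differed from each other (Cochran's Q referred to an F distribution, adjusted p = 0.00636). In siI1 the level was 271 ± 52.6 FPKM in PANC1, 327 ± 29.1 in A549, 316 ± 18.5 in MV3 and 94.1 ± 11 in ES2. On recovered reads the A549 value was called lower too (-0.23).

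NEAT1, the backbone of paraspeckles, also fell in PANC1, from 74.9, 41.2 and 111 to 22.8, 17.1 and 22.1 FPKM (-1.75 ± 0.34, adjusted p = 0.0143). The siC libraries spread widely, and the call was lost without siC 1 (adjusted p = 0.0537) or siI1 2 (adjusted p = 0.0513). It stood at -0.23 in A549, 0.31 in ES2 and -0.09 in MV3, of which voom called the first lower and the second higher. FTX and JPX, noncoding genes of the X inactivation centre, fell in PANC1 by 0.77 (adjusted p = 0.0332) and 0.55 (adjusted p = 0.047) and passed limma in no other line, though voom called FTX higher in MV3 (0.47). FTX lost its call without any library except siC 2 (adjusted p up to 0.104) and JPX without any library (up to 0.147). These 4 falls in PANC1 came with the higher FPKM sums of its siI1 libraries; rescaling to the same sum made each larger (-2.25 for MALAT1, -2.49 for NEAT1, -1.39 for FTX and -1.09 for JPX).

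**Figure D5:**
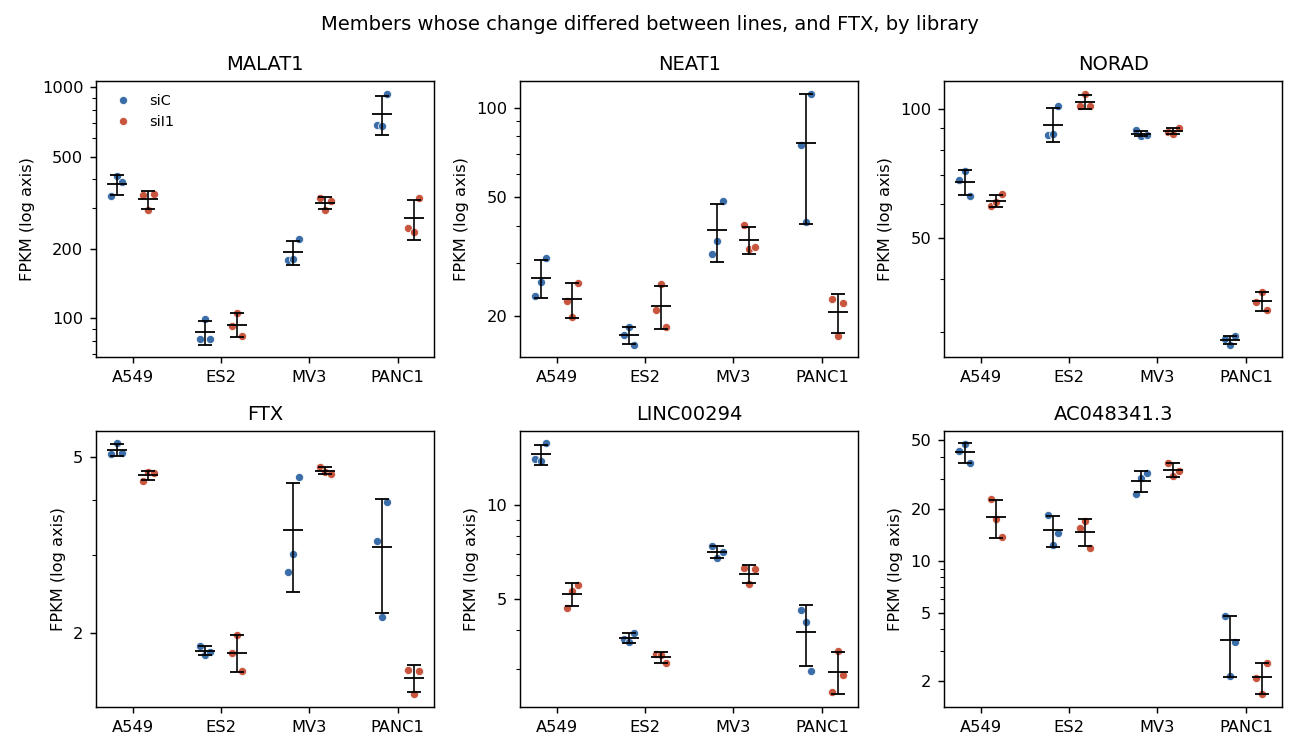
FPKM by library (log axis) for MALAT1, NEAT1, NORAD, FTX, LINC00294 and AC048341.3, siC in blue and siI1 in red, with mean and SD of 3. MALAT1 falls in PANC1 and rises in MV3, NEAT1 and FTX fall in PANC1, and LINC00294 and AC048341.3 fall most in A549.

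NORAD passed in PANC1 only by limma, and voom also called ES2 higher (0.18). It lay at -0.14 in A549, 0.18 in ES2 and 0.02 in MV3, and rose in PANC1 from 28.9, 28.1 and 29.4 to 35.4, 37.3 and 33.8 FPKM (0.30 ± 0.06, adjusted p = 0.0121), a direction that turned to -0.45 when PANC1 libraries were set to the same FPKM sum. PVT1, the neighbour of MYC, passed in no line and stayed between -0.05 and 0.10. EPB41L4A-AS1, a p53-linked regulator of metabolism, lay between -0.23 and 0.11 and also passed in none. TP53TG1, a p53 target transcript, rose in MV3 from 2.99, 2.99 and 1.98 to 4.92, 4.92 and 5.08 FPKM (0.81 ± 0.14, adjusted p = 0.00567). In PANC1 it rose by 0.85 (adjusted p = 0.0254), a call lost without siC 1, siC 3, siI1 1 or siI1 3 (adjusted p up to 0.0833) and on rescaling (0.18), and in ES2 it stood at 0.72 (adjusted p = 0.0539).

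Among members called by limma, LINC00294 had the largest fall in A549. It went in A549 from 14, 13.8 and 15.8 to 4.70, 5.32 and 5.55 FPKM (-1.40 ± 0.09, adjusted p = 0.00086). It was lower by 0.22 in MV3 (adjusted p = 0.0368, lost without any 1 library, up to 0.108, and on rescaling, 0.102) and at -0.18 and -0.36 in ES2 and PANC1, and the difference between lines had an adjusted p of 0.00647. LINC00294 overlaps TCP11L1 on its strand and CSTF3 on the other. AC016831.1 fell in ES2 from 19.8, 19.5 and 19 to 9.44, 11.2 and 9.16 FPKM (-0.94 ± 0.08, adjusted p = 0.000853) and stood at 0.39 in A549, where voom called it higher.

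Among rises, AC254633.1 led in ES2 with 1.60 ± 0.39, from 0.903, 2.21 and 2.81 to 8.77, 7.64 and 4.12 FPKM. Its libraries there held 2 to 23 reads, and the call was lost without siC 1, siC 2, siI1 1 or siI1 2 (adjusted p up to 0.0974). AL596094.1 in A549 (1.5 ± 0.24) rested on 2 to 9 reads and did not pass voom (adjusted p = 0.0504). AL365203.1, listed as ITGB1-DT in GENCODE 44 and overlapping the integrin gene ITGB1 on the other strand, rose in A549 from 8.02, 9.69 and 7.84 to 19.8, 18.6 and 14.2 FPKM (0.99 ± 0.15, adjusted p = 0.00895) and lay between 0.09 and 0.29 in the other lines.

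In MV3 AP006621.2 (1.35 ± 0.28) and AC020559.1 (1.12 ± 0.12) rose most, each on 5 to 44 reads per library. In PANC1 AC015912.3 (1.40 ± 0.23) and LINC00847 (1.22 ± 0.19) followed AC093323.3; LINC00847 also rose in MV3 by 0.51 and stood at 0.28 and 0.30 in A549 and ES2. On rescaling, LINC00847 in PANC1 was at 0.63 with an adjusted p of 0.0516. AC012306.2 rose in ES2 by 0.85 and in PANC1 by 0.95, the latter at 0.28 on rescaling and lost without siC 1, siC 2, siC 3 or siI1 2 (adjusted p up to 0.064). Without siI1 3 the ES2 call was lost as well (adjusted p = 0.0504). AC091057.3 fell in PANC1 by 1.63 on 1 to 17 reads, a call lost without siC 1 or siC 3 (adjusted p = 0.0597 and 0.0525).

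Of the other abundant members, AP005233.2 fell in ES2, where it was high, from 172, 187 and 168 to 106, 121 and 111 FPKM (-0.64 ± 0.07, adjusted p = 0.00149), and in MV3 by 0.49, a call that voom did not make (adjusted p = 0.0538). AC007952.4 fell in MV3 by 0.30 (adjusted p = 0.00233) and rose in PANC1 by 0.66 (adjusted p = 0.0106), a direction that turned to -0.08 on rescaling. AC245014.3 fell in MV3 by 0.42 (adjusted p = 0.0012). AC234772.3, which lies within the span of MIR222HG on its strand, passed in no line.

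Of the 75 members called, 47 were called in a single line. No line called 84 members, 2 lines called 22, 3 lines called 2 and all 4 lines called 4. In 5 members the calls went in opposite directions in different lines. The fold changes differed between lines for 24 members (15.1% of 159), against 28.0% of the 12816 genes tested in all lines (Cochran's Q). For the same question an F test of the interaction over all 24 libraries gave 41 members and the Q test on recovered reads gave 29. The Q test gave 13 without the filter on low values, 4 to 17 with 1 library left out per line, and 0 with a replicate block (41 at an unadjusted p under 0.05).

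Members were longer than other expressed lincRNAs and alike in the letters counted. Among the 144 with an entry in GENCODE 44, the longest transcript had a median of 1656 nt and a GC content of 45.0%, against 1334 nt and 47.7% in 149 other lincRNAs tested in every line. GGAC, the core letters at which m6A is laid down and read, occurred 2.9 times per kb against 2.82, and CAT, within the known recognition letters of IGF2BP1, 15.5 times against 15.4. The 4 members lower in all lines held 0.939 to 2.35 GGAC per kb, and AC093323.1 held 4.76. Across members the log2 fold change followed none of these in A549, ES2 and MV3 (Spearman's rho between -0.07 and 0.13, over 144 or 159 genes that share libraries). In PANC1 it was higher at higher GC content (rho = 0.33 over 144 members, 0.15 over 419 other lincRNAs), and rho was 0.17 for GGAC and -0.19 for CAT.

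A RefSeq promoter window (250 bases before to 50 after the start, GRCh38.p14) matched 57 members. On either strand TATAAA was found in 1.75% of them against 12% of 27305 windows, CCAAT in 40.4% against 35.7%, CACGTG in 10.5% against 7.43%, TTTGGCG in 1.75% against 1.92%, TTTCCCG, whose other strand holds GGAA, in 1.75% against 4.34%, and GGAA in 93.0% against 95.5%.

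Genes that act on nuclear and noncoding RNA are given from 3 lists, with no test of a list. The shares of all genes called lower were 19.5% in MV3, 13.4% in PANC1, 13.0% in ES2 and 7.83% in A549. Those of coding genes alone were 26.8%, 17.3%, 17.9% and 11.4% in that order. Of all genes 16.3%, 11.3%, 10.5% and 5.93% were called higher. Of 18 components of the nuclear exosome and its adaptors, which degrade unstable nuclear RNA, 13 fell in MV3, 8 in PANC1, 6 in ES2 and 1 in A549, and the 2 rises were 1 in MV3 and 1 in PANC1. Their median log2 fold changes were -0.29, -0.24, -0.18 and 0.00 in that order. Of 12 paraspeckle proteins, which assemble on NEAT1, 9 fell in MV3, 7 in PANC1, 5 in ES2 and 2 in A549 and 0 rose by limma, with medians of -0.18, -0.24, -0.15 and -0.08. Of 14 genes of nonsense-mediated decay, 6 fell in MV3, 4 in PANC1, 3 in ES2 and 2 in A549, and 1 rose in each line but A549, with medians of -0.10, -0.06, -0.15 and -0.03. Over all genes the medians were 0.01 in MV3, -0.04 in PANC1, -0.02 in ES2 and -0.01 in A549. On rescaling to the same FPKM sum, the PANC1 medians of the exosome and paraspeckle lists were both -0.96 and that of the decay list -0.77, against -0.68 for all genes.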

How the data were processed

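Members and gene lists were chosen with earlier results of these data known, and the named genes by a rule: members called in the same direction in at least 3 lines, the 3 largest falls and rises per line, the 8 highest, the 3 nearest either side of the level, the 5 with the smallest Q test p, and those in lists by role. Further genes were named with their values in view.

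Per the labels and the study's methods, the authors clipped reads with cutadapt 1.14, aligned them to hg38 with HISAT2 2.1.0 and SAMtools 1.5, counted them per gene with featureCounts 1.5.3 on Ensembl annotation (strand setting not given in the sources used here), and tested with edgeR 3.30.3. The authors deposited 1 table per line with FPKM per library; the unit was worked out from the values, of which 100% were whole multiples, within 0.01, of the worth of 1 read. Reads were recovered from these steps (3105215 to 20082702 per library). The tables also hold the authors' log2 fold changes, p-values and FDR, which were not used.

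Each line was tested alone with limma 3.58.1 (R 4.3.3; lmFit, eBayes with trend, two-sided) on log2(FPKM + 0.5), which understates changes of low genes, over genes averaging 0.5 FPKM or more, with p adjusted by Benjamini-Hochberg across each line's tested genes (18411 in A549, 16920 in ES2, 16380 in MV3, 15846 in PANC1). The fits were tested on simulated data, in which genes with few reads were called too readily by the trend on FPKM; whether voom on recovered reads also made a call is therefore given beside the counts. The 4 fold changes of a gene were compared between lines by Cochran's Q, divided by its degrees of freedom, against an F distribution. All replicate pairs differed by more than sampling noise (chi-square per gene from 1.54 to 15.1). Places are from GENCODE 44, which lists 144 members. Sequences are from RefSeq and hg38. Scripts used Python 3.11.15, pandas 2.3.3 and scipy 1.17.1. Alternatives were other pseudocounts, filters, scalings, a replicate block, voom, a variance trend on reads and leaving out libraries.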

Additional observations from a re-analysis of the deposited data

Results flagged for a closer look

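The following 24 members were singled out because their change after IGF2BP1 knockdown differed between the 4 lines, by Cochran's Q test on the limma fits with adjustment over the 12816 genes tested in all lines, where 28.0% passed. The log2 fold changes of several are given with the report, and the others follow here in the order A549, ES2, MV3 and PANC1. The Q test had an adjusted p of 0.00636 for MALAT1, 0.00647 for LINC00294, 0.00822 for AC016831.1, 0.0135 for AC007952.4, 0.0177 for AC020559.1, 0.0212 for LINC00472, 0.0215 for AC048341.3, 0.0223 for MIRLET7BHG, 0.027 for AC005261.2, 0.0306 for NEAT1, 0.0319 for NORAD, 0.0373 for AC245014.3, 0.039 for AC015912.3, 0.0426 for AC091057.3 and 0.0458 for AL365203.1.

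Opposite calls in different lines were made for AC092747.4 (adjusted p = 0.0208), which fell in A549 by 0.94 and rose in ES2 by 0.62, and stood at -0.25 in MV3 and -0.41 in PANC1. AL355001.2 (adjusted p = 0.0208) fell in ES2 by 0.63, a call that voom did not make, rose in PANC1 by 0.95, and stood at -0.64 in A549 and 0.43 in MV3. Leaving out 1 library ended these calls in A549 (siC 1, siC 2, siI1 1 or siI1 2) and ES2 (any but siC 3) for AC092747.4, with adjusted p up to 0.07 and 0.0937. For AL355001.2 it ended them in ES2 (any library, up to 0.0956) and in PANC1 (siC 1 or siI1 1, up to 0.0593).

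LINC01963 (adjusted p = 0.0216) fell in A549 by 0.63 and in PANC1 by 0.69 and stood at 0.08 and 0.09 in ES2 and MV3. AP006621.3 (adjusted p = 0.0284) rose in ES2 by 0.65 and in MV3 by 0.56, with -0.19 in A549 and -0.38 in PANC1. AP000654.1 (adjusted p = 0.0422) likewise rose in ES2 by 0.67 and in MV3 by 0.53, with -0.65 in A549 and -0.03 in PANC1. LINC00941 (adjusted p = 0.0419) rose in A549 by 0.71, with -0.25, -0.21 and 0.07 elsewhere. LINC01963 lost its call in A549 without any library but siI1 2 (adjusted p up to 0.104) and in PANC1 without siC 1 or siI1 2 (up to 0.0541). AP006621.3 lost it in ES2 without any but siI1 3 (up to 0.129) and in MV3 without siC 2, siC 3, siI1 2 or siI1 3 (up to 0.0654). AP000654.1 lost it in MV3 without siC 1, siC 2, siI1 1 or siI1 3 (up to 0.0783), and LINC00941 in A549 without any but siI1 2 (up to 0.112).

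Calls without support on recovered reads were those of BX284668.5 (adjusted p = 0.0314), lower in ES2 at -0.38 with 0.41, 0.31 and 0.25 in the other lines, and of AL355338.1 (adjusted p = 0.035), lower in ES2 and MV3 at -0.34 in each, with 0.40 in A549 and 0.26 in PANC1. The ES2 call of AL355338.1 was lost without any 1 library (adjusted p up to 0.122). AC018645.2 (adjusted p = 0.0485) fell in MV3 by 0.56, with 0.20, -0.28 and 0.05 in A549, ES2 and PANC1. Of the 24, 5 did not pass the Q test on recovered reads (AC020559.1, adjusted p = 0.0572, BX284668.5, 0.271, AL355338.1, 0.079, AL365203.1, 0.0661, and AC018645.2, 0.282), and 3 did not pass the interaction test (BX284668.5, 0.209, AC091057.3, 0.0969, and AC018645.2, 0.07). With 1 library left out per line, 4 to 17 of all members passed Cochran's Q test on the limma fits.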

How the results depend on the processing

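Without the filter on low values 3 members were higher in A549, 9 lower and 6 higher in ES2, 10 higher in PANC1, 2 lower in all lines and 13 different between lines. With libraries rescaled to the same FPKM sum these were 3 higher in A549, 9 lower in ES2 (median 0.07), 65 lower and 3 higher in PANC1 (median -0.68) and 44 different between lines; NORAD (-0.45) and AC007952.4 (-0.08) reversed in PANC1. On recovered reads with voom 8 were higher in A549 and 19 lower in PANC1, and with a variance trend on reads, chosen after seeing the data, 9 were higher in A549 and 39 differed between lines. The interaction test gave 41. Members chosen by their siI1 level had medians of 0.11 in A549, 0.14 in MV3 and 0.05 in PANC1, and with the left-out genes put back 8 were higher in A549 and 3 in all lines. Leaving out 1 replicate per line gave 5 to 8 lower and 2 to 4 higher in A549, 7 to 10 and 4 to 12 in ES2, 12 to 14 and 19 to 27 in MV3, 6 to 14 and 9 to 15 in PANC1, 1 to 2 lower and 0 to 0 higher in all lines, and 4 to 17 different between lines, with medians of -0.01 to 0.1, -0.02 to 0.04, 0.05 to 0.13 and -0.13 to 0.03. Samples with the same replicate number correlated by -0.12 to 0.12 in their deviations, so the numbers were not taken to pair them; with a replicate block 6 members were lower and 3 higher in A549, 9 lower and 7 higher in ES2, 2 lower in all lines, and 0 differed between lines by the limma-based Q test (41 at an unadjusted p under 0.05, and 0 of all genes after adjustment). The 56 called values of named members were each compared under every alternative. Counted over all these comparisons, 678 kept their direction and call, 104 kept their direction but no longer passed the threshold, and 2 reversed. Other than the construction of each alternative, the cause was not tested. Depth limits A549 most, where 56 members had under 10 reads per siC library.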
